A study of Mus musculus with 24 samples.

Results

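Growth hormone signalling and the repressor Bcl6 were followed through 9 genes, Ghr, Jak2, Stat5a, Stat5b, Socs2, Socs3, Cish, Bcl6 and Onecut1, in liver and hypothalamus of ob/ob mice given γ-oryzanol. All probe sets that the array annotation pairs with 1 of these symbols alone were taken, which gave 23 of the 45101 probe sets on the array for 9 of 18194 measured genes, and none was filtered out. Total RNA from 24 samples was hybridized to Affymetrix mouse expression arrays, 12 from liver and 12 from hypothalamus. Each tissue had 4 groups of 3 arrays: methylcellulose vehicle, regular γ-oryzanol, nanoparticle vehicle, and γ-oryzanol encapsulated in PLGA nanoparticles (Nano-Orz). The loaded particles were given in water, and the titles name their control only as Nano vehicle. All mice were male ob/ob animals, which lack leptin, had free access to food, were treated orally for 4 weeks and were 9 weeks old at sampling. The 3 mice of a group had been selected as representative, the Nano-Orz dose of the array mice was not given in the sources used here, and no lean or leptin-sufficient mice are among the arrays. Vehicle arrays are called Veh 1 to Veh 3 and treated arrays Orz 1 to Orz 3 within each tissue and preparation.

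Growth hormone is released by the pituitary in pulses and binds its receptor Ghr, which activates the kinase Jak2. Jak2 phosphorylates the transcription factors Stat5a and Stat5b, which in liver induce the insulin-like growth factor Igf1, many genes that differ between male and female mice, and the feedback inhibitors Socs2, Socs3 and Cish. Bcl6 is a zinc finger repressor whose DNA motif overlaps that of Stat5, and in mouse liver its transcript is lowered by growth hormone. Onecut1 (HNF6) is a liver transcription factor that in rat liver is induced by growth hormone. In the hypothalamus the receptor is found on neurons that feed back on the hormone's release, and Socs3 restrains leptin receptor signalling there.

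Promoter windows that RefSeq gives for these genes (build GRCm38.p6, 250 bases before to 50 after a transcription start) were searched for the palindromic motif TTCNNNGAA, which reads the same on both strands and is the letter pattern that Stat5 and Bcl6 share. It was found in 8.3% of all 32851 windows of this length, and in 4 of the 12 windows of these genes, belonging to Bcl6, Cish and Socs3. Windows were given for 8 of the 9 genes, Socs2 being the exception. The 6 pieces that hold it are printed because Bcl6 is the gene that was called in the data and Cish and Socs3 are the feedback genes compared with it. Capitals mark the fixed letters of the motif.
Bcl6 first window, chr16:23988957-23988975, minus strand: attagTTCtcaGAAttcca
Bcl6 second window, chr16:23981438-23981456, minus strand: gcggcTTCctgGAAagtta
Bcl6 second window, chr16:23981392-23981410, minus strand: gagtgTTCtgtGAAatcct
Bcl6 second window, chr16:23981358-23981376, minus strand: ctacgTTCcggGAAtgaga
Socs3, chr11:117969507-117969525, minus strand: cagccTTCttaGAAgggag
Cish, chr9:107296654-107296683, plus strand: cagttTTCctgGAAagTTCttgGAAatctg
The second Bcl6 window held 3 copies, starting at -168, -122 and -88 from the transcription start, and the first window held 1. The Cish window held 2 copies, at bases 1 and 12 after the start. A match is a run of letters only, and no binding was measured in these samples.

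The deposited signals are log2 values made with the distribution free weighted method (DFW), which draws arrays close together. Over all probe sets the median standard deviation within a group was 1.84 to 3.23 millionths (1e-06) of a log2 unit, and 99% to 99.7% of probe sets varied by less than 0.001 among the 6 arrays of a comparison. Differences are therefore given in millionths of a log2 DFW unit, and they rank probe sets but are not fold changes. Tissue labels fitted their markers, with Alb at 14.7 to 14.8 in liver against 6.41 to 6.60 in hypothalamus, and the neuronal gene Snap25 at 13.1 to 13.2 in hypothalamus against 5.50 to 5.64 in liver. 9 of 10 hepatocyte genes were higher in every liver array and all 15 hypothalamic neuron genes in every hypothalamus array. In bulk tissue, fewer cells of a type and less RNA per cell cannot be told apart.

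Ghr signal was higher in every liver array than in every hypothalamus array for its 3 probe sets, and the signal of Bcl6 1421818_at was lower. The Ghr probe set 1417962_s_at stood at 12 in liver and at 8.52 to 9.23 in hypothalamus, and 1451501_a_at at 10.8 to 11.5 against 6.83 to 7.15. Bcl6 1421818_at was at 7.35 to 7.41 in liver and at 8.52 to 8.72 in hypothalamus. The tissues were apparently quantified apart, so these levels are a description across scales. As deposited, 6 of the 23 probe sets were higher in every liver array, 13 in every hypothalamus array and 4 overlapped. After quantile normalization over the 24 arrays the counts were 14 and 2. The 3 Ghr probe sets, Stat5a 1421469_a_at and both cross-hybridising Socs3 probe sets (suffix _x_at) stayed higher in liver, and Bcl6 1421818_at and Socs2 1441476_at stayed higher in hypothalamus. The other Bcl6 probe set, 1450381_a_at, was higher in every hypothalamus array as deposited. After quantile normalization it overlapped, at 7.04 to 7.60 in liver and 7.30 to 7.42 in hypothalamus. Jak2 1421066_at, Socs3 1416576_at, Cish and Onecut1 1450252_at turned from higher in hypothalamus to higher in liver, so no direction is given for them. No level is set against that of another probe set, because probes differ in brightness.

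**Figure D1:**
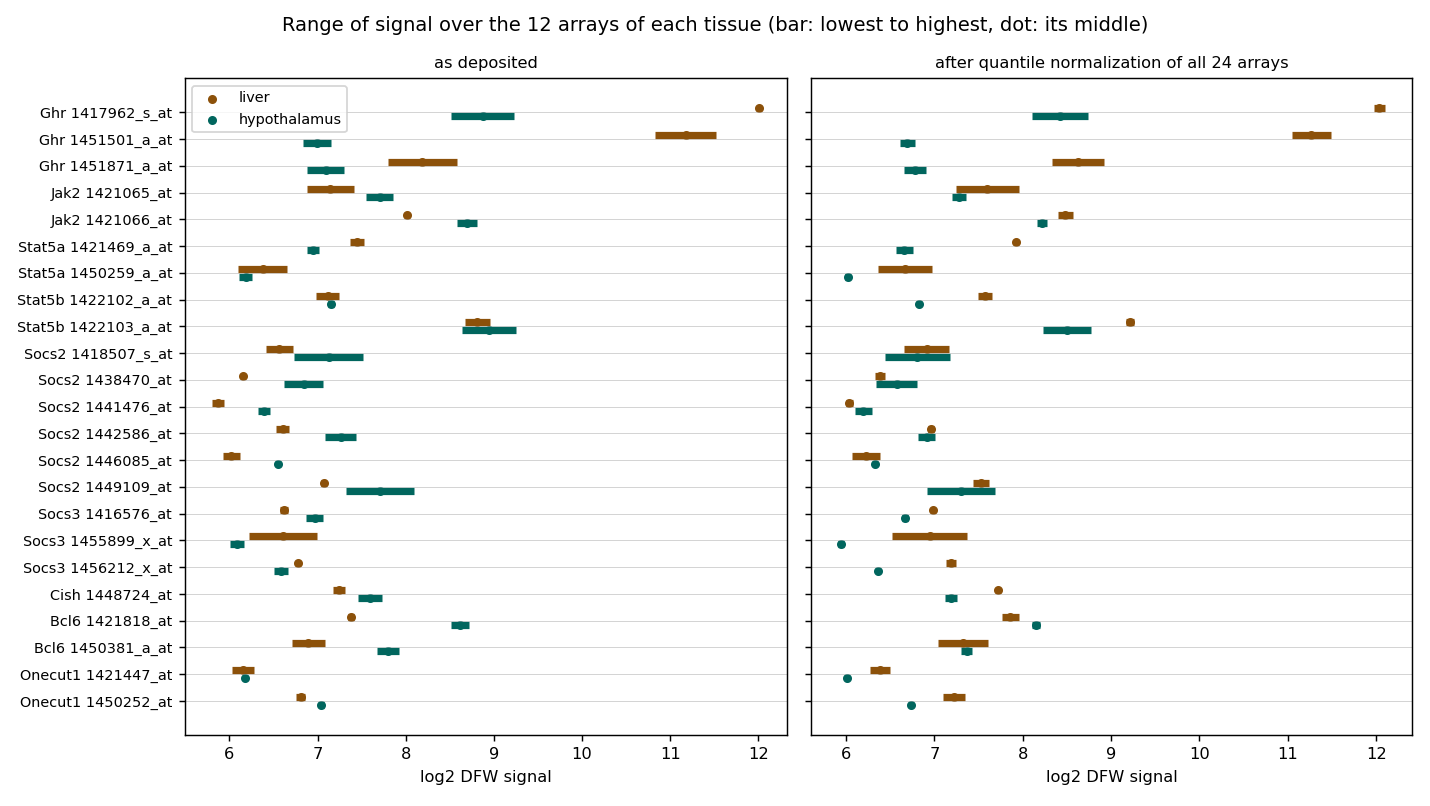
Range of log2 DFW signal of the 23 probe sets over the 12 liver arrays and the 12 hypothalamus arrays, as deposited and after quantile normalization of all arrays. Ghr lay higher in liver and Bcl6 1421818_at higher in hypothalamus on both scales, while Cish, Jak2 1421066_at and Onecut1 1450252_at changed sides. Bcl6 1450381_a_at overlapped between the tissues after quantile normalization.

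Treated arrays were set against vehicle arrays within each tissue and preparation by rank product, which ranks all probe sets in each of the 9 treated-vehicle pairs and calls those whose proportion of false positives (pfp) is under 0.05. In liver, Bcl6 1421818_at was called lower with regular γ-oryzanol (pfp 0.0273) and with Nano-Orz (pfp 0.0143), and no other probe set of the 9 genes was called in either direction. Among all probe sets, 0.224% were called lower and 0.182% higher with regular γ-oryzanol in liver, and 0.182% lower and 0.297% higher with Nano-Orz. In hypothalamus 0 of the 23 were called by rank product, against 0.384% lower and 0.166% higher of all probe sets with regular γ-oryzanol and 0.734% lower and 0.242% higher with Nano-Orz. limma called 0 of the 23 at an adjusted p under 0.05 in all 4 comparisons, as it called 0% of all probe sets. At an unadjusted limma p under 0.05 there were 3 and 0 of the 23 in liver with regular γ-oryzanol and Nano-Orz (4.58% and 4.34% of all), and 1 and 3 in hypothalamus (5.68% and 6.1%). The methods' t-test at an unadjusted p under 0.05 gave 2, 0, 1 and 3 of the 23 in the same order, beside 4.42%, 4.39%, 5.51% and 5.91% of all probe sets. Treated and vehicle arrays did not overlap in 3, 0, 2 and 3 of the 23 probe sets in this order of comparisons, beside 9.25%, 9.01%, 10.9% and 11.1% of all probe sets. By direction, 3 lay above and 0 below in liver with regular γ-oryzanol (5.02% and 4.23% of all), 0 and 0 in liver with Nano-Orz (4.34% and 4.67%), 1 and 1 in hypothalamus with regular γ-oryzanol (5.87% and 5.04%), and 2 and 1 in hypothalamus with Nano-Orz (6.18% and 4.95%).

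The genes differed widely in how much their signal varied between mice. In liver with regular γ-oryzanol, the standard deviation within groups ran from 0.122 millionths for Jak2 1421065_at to 2293 for Bcl6 1421818_at, with a median of 5.50 against 3.23 over all probe sets. With Nano-Orz it ran from 0.298 for Socs2 1446085_at to 8388 for Bcl6 1421818_at. In each liver comparison 3 of the 23 lay past the 99th percentile of spread of all probe sets: Bcl6 1421818_at and Onecut1 1450252_at in both, Socs2 1449109_at with regular γ-oryzanol, and Ghr 1451871_a_at with Nano-Orz. In hypothalamus 1 did with regular γ-oryzanol, Socs2 1449109_at at 413 millionths, and 0 with Nano-Orz, where the widest was Socs2 1441476_at at 16.3.

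**Figure D2:**
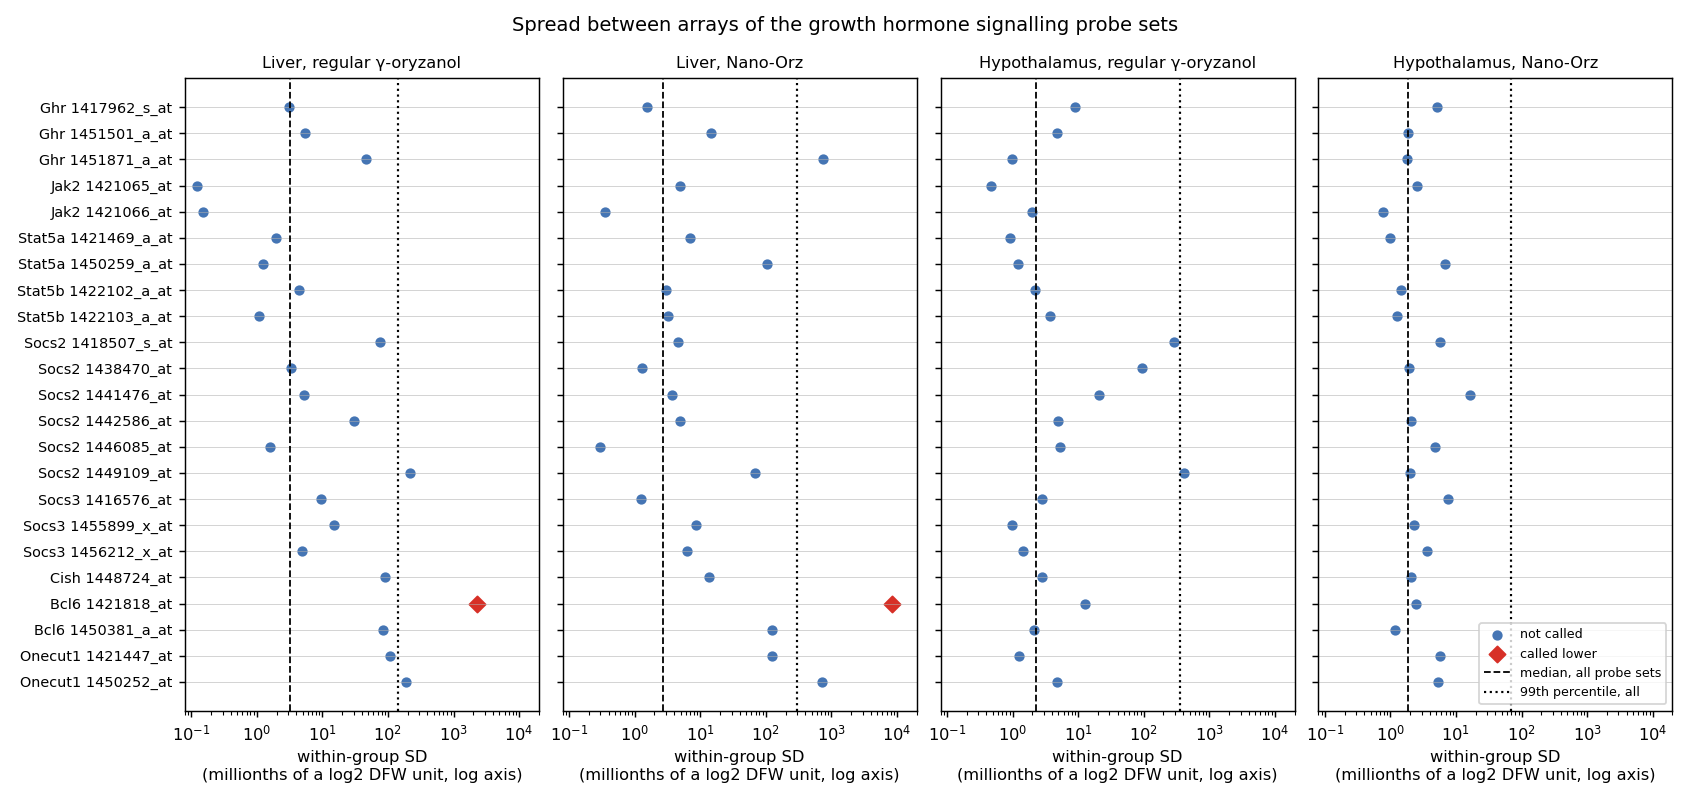
Within-group standard deviation of each of the 23 probe sets in the 4 comparisons on a log axis, in millionths of a log2 DFW unit, with the median (dashed) and the 99th percentile (dotted) of all probe sets. The called Bcl6 probe set has the widest spread of the 23 in both liver panels, at 2293 and 8388 millionths.

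The receptor showed small differences. In liver Ghr 1417962_s_at stood, relative to the vehicle mean, at -1.29, -1.47 and 2.77 millionths in Veh 1 to Veh 3 and at 3.23, -2.60 and 4.29 in Orz 1 to Orz 3 of regular γ-oryzanol. The groups overlapped, with a difference of 1.64 millionths (SE 2.39). With Nano-Orz the difference was 1.42 (SE 1.21), again with overlap. The probe set 1451871_a_at was more variable in liver with Nano-Orz, at 245, 652 and -898 millionths in the vehicle arrays and -307, 114 and 971 in the treated arrays. Its highest array was treated and its lowest was a vehicle, and the difference of 259 was below its SE of 551. In hypothalamus all regular γ-oryzanol arrays of Ghr 1417962_s_at lay above all vehicle arrays, at 20.8, 32.4 and 7.85 against 3.26, -0.930 and -2.33 millionths. The difference was 20.3 (SE 6.75), with a limma p of 0.0323 and an adjusted p of 0.871, and a pfp of 0.334. With Nano-Orz it was -0.229 (SE 3.88). The difference between these 2 effects, -20.6 millionths (SE 8.04), had a limma adjusted p of 0.664.

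Jak2, the kinase bound to the receptor, varied little in liver through its probe set 1421066_at, with 97.9% of all probe sets wider in the regular γ-oryzanol comparison and 92.4% in that of Nano-Orz. The other probe set, 1421065_at, was as steady with regular γ-oryzanol (98.5% wider) and not with Nano-Orz (33.1% wider, standard deviation 4.93 millionths). With regular γ-oryzanol the arrays of 1421066_at lay between -0.200 and 0.157 millionths around the vehicle mean. Its difference was -0.0503 (SE 0.520), and with Nano-Orz it was -0.0673 (SE 0.473). Over both Jak2 probe sets and the 4 comparisons, differences ran from -0.508 to 2.15 millionths, the arrays overlapped in each, and the smallest limma adjusted p was 0.959.

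Of the Stat5 genes, the Stat5b probe set 1422103_a_at was the one whose arrays separated with Nano-Orz in hypothalamus, at 5.10, 2.88 and 3.81 millionths in treated arrays against 1.41, -1.43 and 0.0197 in vehicle arrays. The difference of 3.93 (SE 0.991) had a limma p of 0.0120, an adjusted p of 0.775 and a pfp of 0.943. Stat5a 1421469_a_at lay lower in every regular γ-oryzanol array of the hypothalamus, at -2.14, -0.428 and -2.85 against -0.252, 0.307 and -0.0557 millionths. That difference, -1.80 (SE 0.749), had an adjusted p of 0.872. In liver both genes overlapped throughout, with differences of -2.65 (SE 1.53) and 3.49 (SE 5.31) for Stat5a 1421469_a_at and -0.399 (SE 0.942) and -1.04 (SE 2.43) for Stat5b 1422103_a_at, given for regular γ-oryzanol and then Nano-Orz. The second Stat5a probe set, 1450259_a_at, followed Ghr 1451871_a_at over the 12 liver arrays (r = 0.953 after the mean of each preparation was taken off). Both ran high in Orz 3 of Nano-Orz and low in Veh 3, and points of 1 preparation apparently share their quantification.

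Socs3, a feedback inhibitor that binds Jak2, separated treated from vehicle arrays in liver with regular γ-oryzanol. Its probe set 1455899_x_at stood at -3.12, -15.7 and 18.9 millionths in Veh 1 to Veh 3 and at 54.1, 78.5 and 64.6 in Orz 1 to Orz 3. All treated arrays were thus above all vehicle arrays, as in 5.02% of all probe sets. The difference was 65.7 (SE 11.3), with a limma p of 0.00248 and an adjusted p of 1, a pfp of 0.0698, and an exact two-sided permutation p of 0.1, the smallest that 3 against 3 arrays allow. The probe set 1456212_x_at also separated, with a difference of 10.5 (SE 3.66), while 1416576_at overlapped at 7.07 (SE 7.21). With Nano-Orz none of the 3 separated in liver, and 1455899_x_at differed by -1.70 (SE 6.45). In hypothalamus this probe set lay lower in every Nano-Orz array, at -6.97, -11.3 and -5.25 against -0.985, -0.106 and 1.09 millionths, a difference of -7.83 (SE 1.76, limma adjusted p 0.768). Probes with the suffix _x_at can bind related transcripts, so the signal cannot be assigned to Socs3 alone.

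Socs2, which limits growth hormone action, is represented by 6 probe sets. Its representative, 1449109_at, stood in liver with regular γ-oryzanol at -178, -12.6 and 191 millionths in vehicle arrays and -145, 292 and 271 in treated arrays. Orz 2 and Orz 3 were above all vehicle arrays and Orz 1 was not, and the difference was 139 (SE 163, pfp 0.111). With Nano-Orz it was 52.7 (SE 51.5), with Orz 1 at 156 and the other 5 arrays between -35.2 and 21.7. In hypothalamus with regular γ-oryzanol the values were -70.5, 195 and -124 in vehicle arrays and -161, -725 and 392 in treated arrays. The lowest and the highest arrays were both treated, and the difference was -164 (SE 312). Arrays separated for 1446085_at in liver with regular γ-oryzanol (4.10, SE 1.30) and for 1442586_at in hypothalamus with Nano-Orz (5.04, SE 1.59), both higher with treatment and neither called.

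Cish, another feedback inhibitor and an early Stat5 target, had 1 probe set. In liver with regular γ-oryzanol it stood at 14.5, -37.9 and 23.5 millionths in vehicle arrays and 1.82, 202 and -19.3 in treated arrays, so that Orz 2 alone was high. The difference was 61.6 (SE 67.0). With Nano-Orz it was 17.7 (SE 10.1), with Orz 1 and Orz 3 at 34.8 and 20.7 above all vehicle arrays and Orz 2 at -2.30 among them. In hypothalamus the differences were -1.25 (SE 2.15) and 1.595 (SE 1.57).

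**Figure D3:**
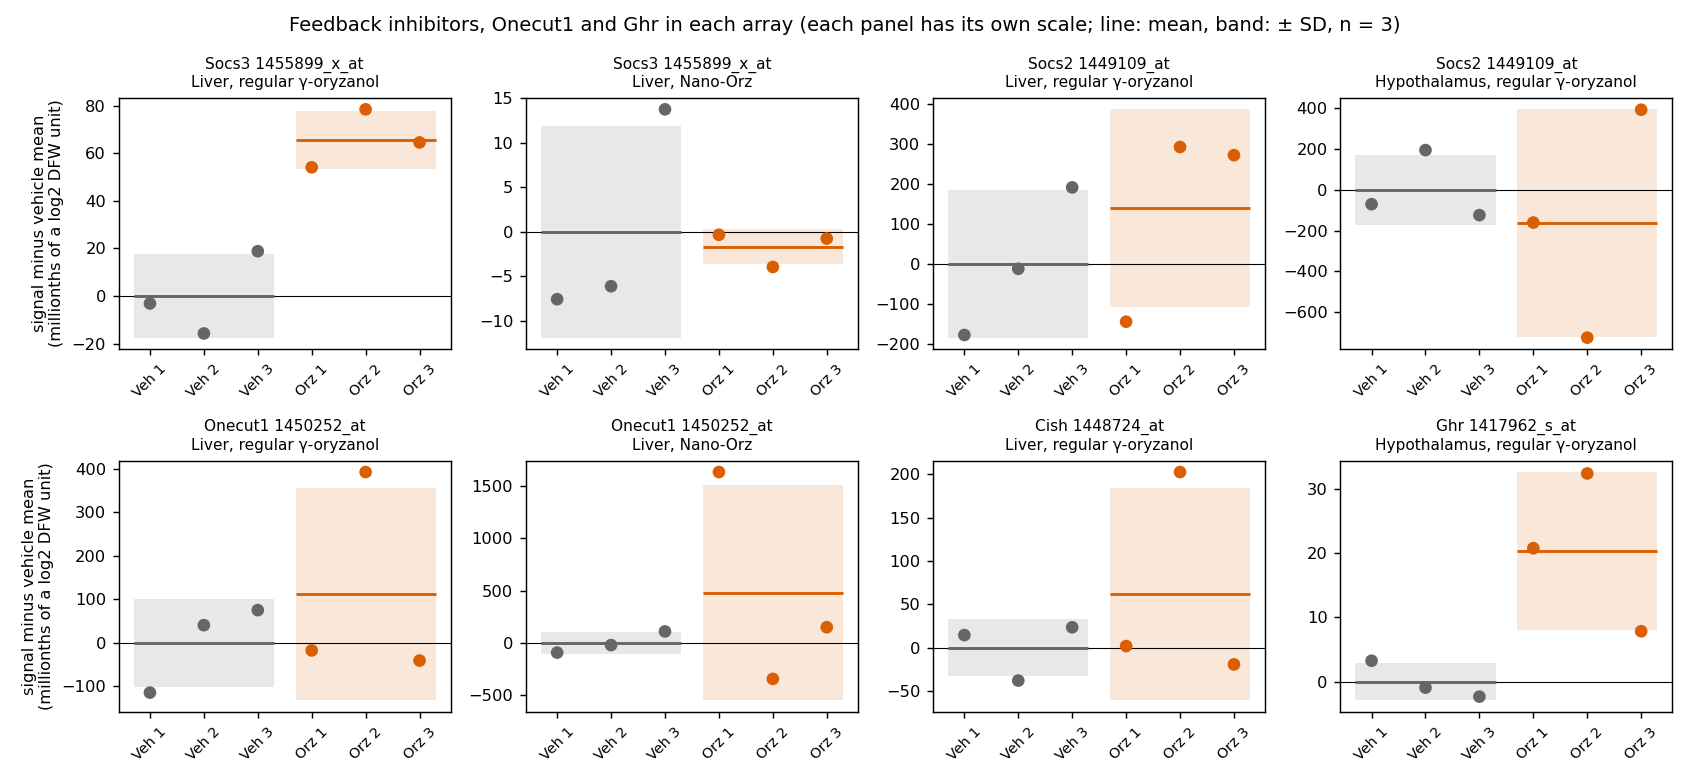
Signal of each array minus the vehicle mean, in millionths of a log2 DFW unit, for Socs3, Socs2, Onecut1, Cish and Ghr probe sets in the comparisons named above each panel, with the mean (line) and standard deviation (band) of 3 arrays. Vehicle and treated arrays are apart for Socs3 1455899_x_at in liver with regular γ-oryzanol and for Ghr 1417962_s_at in hypothalamus with regular γ-oryzanol, and overlap in the other 6 panels.

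Bcl6 1421818_at was called lower in both liver comparisons although its treated and vehicle arrays overlapped in each. With regular γ-oryzanol the vehicle arrays stood at -762, 3177 and -2414 millionths and the treated arrays at 506, -940 and -2501. Veh 2 was the highest array, and Orz 1 was above the other vehicle arrays. The mean difference was -978 millionths (SE 1714), with a limma adjusted p of 1 and an exact two-sided permutation p of 0.6. With Nano-Orz the vehicle arrays stood at 689, 3779 and -4467 and the treated arrays at -7089, 12323 and -6737. Orz 1 and Orz 3 were the lowest of the 6 arrays and Orz 2 was the highest. The mean difference was -501 (SE 6321), with a limma adjusted p of 1 and an exact two-sided permutation p of 1. 

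The Bcl6 call rests on a probe set that varied widely without treatment. Among vehicle arrays alone, 0.0843% of all probe sets in the regular γ-oryzanol comparison and 0.115% in the Nano-Orz comparison had a wider standard deviation. Of the 101 probe sets called lower in liver with regular γ-oryzanol, 66 (65.3%) were among the 1% of widest spread and 40 (39.6%) had no overlap of arrays. With Nano-Orz these were 55 (67.1%) and 28 (34.1%) of 82. The standard error of Bcl6 was the 11th and the 10th largest among these called probe sets.

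Leaving out 1 array at a time, the call of Bcl6 1421818_at was lost without Veh 1 (pfp 0.226), Veh 2 (pfp 1.03) or Orz 3 (pfp 0.176) of regular γ-oryzanol. Its mean difference ran from -2185 millionths without Veh 3 to 610.1 without Veh 2. With Nano-Orz the call held without Orz 2 (pfp 0, difference -6913) and was lost without any of the other 5 arrays, at a pfp of 0.0812 to 0.166. The difference turned to 2793 without Orz 1, 2617 without Orz 3 and 1389 without Veh 2. The difference between the effects of both preparations was 478 millionths (SE 6745, limma adjusted p 1).

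**Figure D4:**
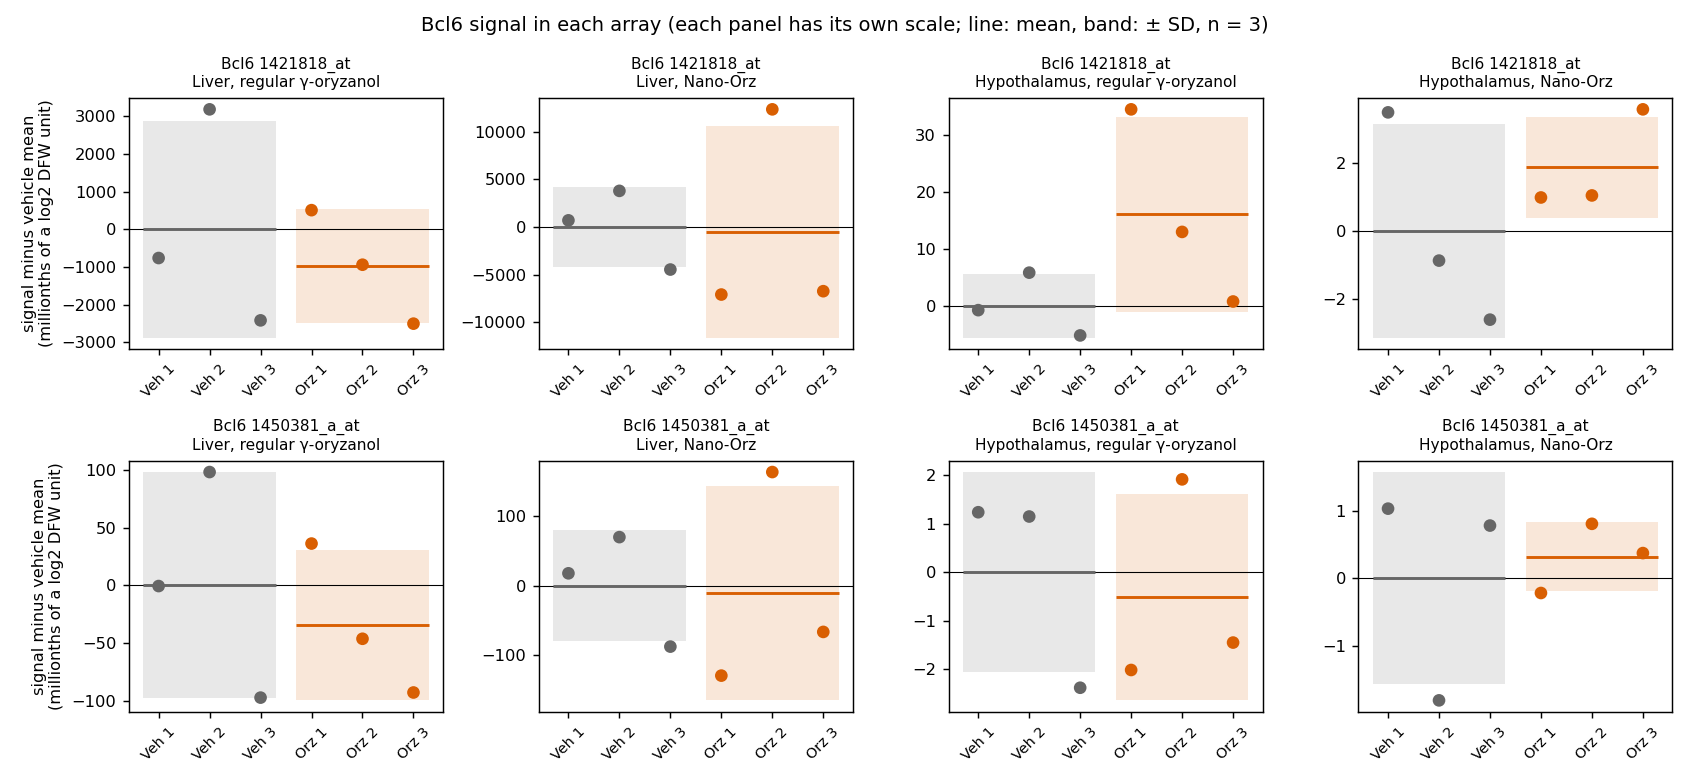
Signal of both Bcl6 probe sets in each array minus the vehicle mean, in millionths of a log2 DFW unit, with the mean (line) and standard deviation (band) of 3 arrays; each panel has its own scale. In liver the treated arrays of 1421818_at lie among or on both sides of the vehicle arrays, with Orz 2 of Nano-Orz at 12323.

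**Figure D5:**
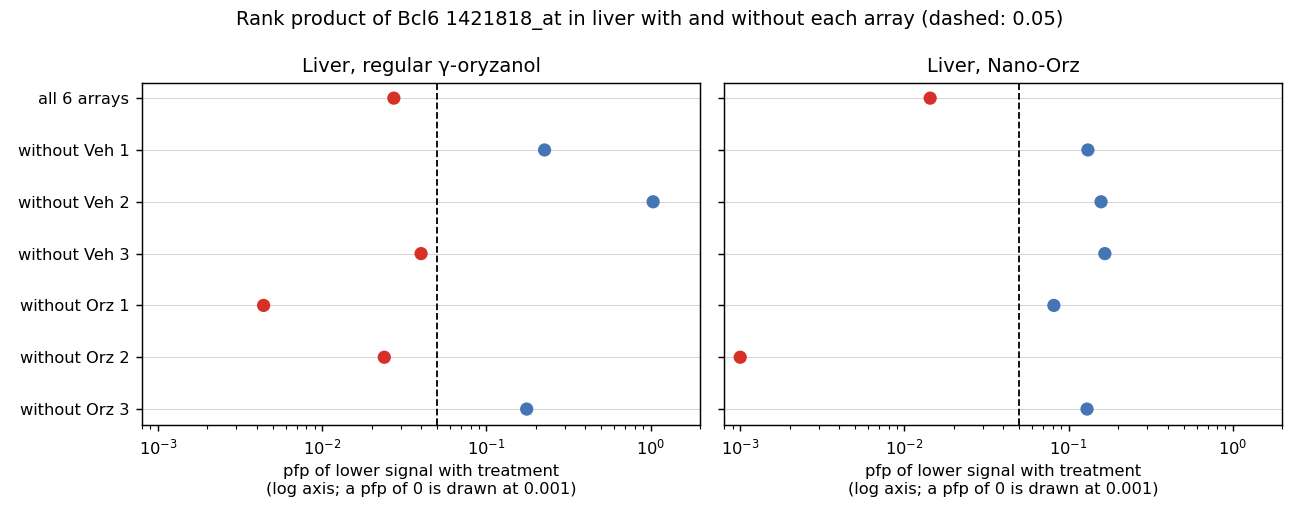
The pfp of a lower Bcl6 1421818_at signal in liver from all 6 arrays and after each array was left out, on a log axis, with the threshold of 0.05 dashed and calls in red. The call held in 3 of the 6 sets of 5 arrays with regular γ-oryzanol and in 1 of 6 with Nano-Orz.

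The second Bcl6 probe set, 1450381_a_at, ordered the liver arrays much as the first did (r = 0.923 over 12 arrays, 0.973 and 0.978 within the 6 arrays of each preparation), on a smaller scale. It differed by -34.4 millionths (SE 62.2) with regular γ-oryzanol and by -10.8 (SE 92.8) with Nano-Orz and was not called. In hypothalamus Bcl6 1421818_at varied by a standard deviation of 12.7 and 2.46 millionths. Its treated arrays stood at 34.5, 13.02 and 0.804 with regular γ-oryzanol against -0.715, 5.87 and -5.15, a difference of 16.1 (SE 9.59), and differed by 1.87 (SE 1.87) with Nano-Orz. Both overlapped.

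Among 68 genes whose liver signal varied by a standard deviation over 0.001, those most like Bcl6 1421818_at over the 12 liver arrays were Igfbp1 (r = 0.696), Egr1 (r = 0.685) and Elovl3 (r = 0.658). Igfbp1 binds insulin-like growth factors, Egr1 is an immediate early transcription factor and Elovl3 elongates fatty acids. The likeness of Egr1 and Elovl3 lay in the Nano-Orz arrays, with r = 0.712 and 0.692 there and r = -0.302 and -0.587 within regular γ-oryzanol, while Igfbp1 had r = 0.706 and 0.600. In Orz 2 of Nano-Orz, the array of highest Bcl6, Igfbp1 stood at 2852, Egr1 at 12173 and Elovl3 at 4007 millionths, each the highest of its 6 arrays. Bcl6 also marks germinal centre B cells and some T cells. Of 6 B cell markers measured in liver, Ighm was called higher with regular γ-oryzanol and lower with Nano-Orz. The sum of B cell markers ran from -462 to 233 millionths in vehicle and from -263 to 1128 in treated arrays with regular γ-oryzanol, and from -3639 to 2951 and from -21730.3 to -6111 with Nano-Orz. Ighm made up nearly all of these sums, at 1102, -262 and 462 in regular γ-oryzanol arrays and -21734, -6149 and -12605 in Nano-Orz arrays. In each preparation 4 of the 6 markers had a positive difference, with medians of 3.15 and 2.76 millionths. None of the 5 T and NK cell markers was called in liver, and their sums stayed between -29.8 and 22.3 millionths. The part of these cells in the Bcl6 signal was not tested.

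Onecut1 varied in liver through single arrays. With Nano-Orz its probe set 1450252_at stood at -91.0, -19.6 and 111 millionths in vehicle arrays and at 1630.2, -342 and 151 in treated arrays. Orz 1 was the highest and Orz 2 the lowest of the 6, and the difference was 479.8 (SE 550, pfp 0.160). With regular γ-oryzanol Orz 2 stood at 393 and the other 5 arrays between -115 and 74.9, a difference of 111 (SE 140). The second probe set, 1421447_at, followed it in liver (r = 0.801). The neuronal gene Snap25 and the neural transcription factor Zic1, chosen after values were seen, moved with Onecut1 in the Nano-Orz arrays (r = 0.990 and 0.953), with Orz 1 at 1418 and 1991 millionths, and not in the regular γ-oryzanol arrays (r = -0.579 and -0.021). Of 15 hypothalamic neuron markers 0 were called in liver with Nano-Orz, and their sum was 1400.2 in Orz 1 and between -169 and 99.1 in the other arrays, at a Snap25 level of 5.50 to 5.64. Snap25 is 1 of these markers and made up nearly all of the sum in Orz 1. Of the 15, 6 had a positive difference, with a median of -0.114 millionths. The part of neural genes in the Onecut1 signal was not tested. In hypothalamus Onecut1 1450252_at differed by 0.0207 (SE 3.65) and -8.14 (SE 4.06).

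Whether the effect of γ-oryzanol differed between the preparations or between the tissues was tested in limma for all probe sets. Each tissue and preparation was apparently quantified apart, so all differences between effects in this text cross scales, and limma pooled their variance. The 99th percentile of spread was 143 and 295 millionths in liver and 358 and 70.3 in hypothalamus, with regular γ-oryzanol and Nano-Orz. None of the 23 passed, beside 0%, 0.00443%, 0.00222% and 0.00443% of all probe sets, with smallest adjusted p of 0.600 and 0.376 for the preparations in liver and hypothalamus, and 0.305 and 0.746 for the tissues with regular γ-oryzanol and Nano-Orz. At an unadjusted p under 0.05 there were 2, 2, 2 and 1 of the 23, beside 5.5%, 6.87%, 6.64% and 6.43% of all probe sets. In the first 3 of these tests Socs3 1455899_x_at had the smallest p. Its effect in liver with Nano-Orz minus that with regular γ-oryzanol was -67.4 millionths (SE 13.5, limma p 0.000772), and with regular γ-oryzanol the effect in liver was 64.9 above that in hypothalamus (SE 11.8, limma p 0.000401).

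The other genes of the pathway were described through 9 lists, with 1 probe set per gene. No gene was called in any of the 4 comparisons among 12 genes of the axis above the receptor (growth hormone releasing hormone, somatostatin, ghrelin and their receptors), 16 receptor-proximal genes, 16 other negative regulators such as Ptpn1 and Pias1, 7 receptors that use Jak2 or Stat5, or 9 partners and relatives of Bcl6. In liver their median differences lay between -0.709 and 0.950 millionths, against -0.0397 and -0.0258 over all 18194 genes represented the same way, with regular γ-oryzanol and Nano-Orz. Of 14 Stat5-dependent liver targets, 2 were called lower and 0 higher in liver with regular γ-oryzanol, Igfbp2 and the cyclin Ccnd1, and 1 was called higher and 0 lower with Nano-Orz, Igfbp2. Ccnd1 stood at -133, 1123 and -990.1 millionths in vehicle arrays and -3785, 709 and -1799.6 in treated arrays, a difference of -1625 (SE 1317) with overlap, and its call was lost without Veh 1 or Veh 2. Igf1, the main hepatic target of growth hormone and chosen here after its values were seen, was not called. With Nano-Orz it stood at 33.3, 34.5 and 30.8 millionths against 1.97, 28.9 and -30.9 in vehicle arrays, a difference of 32.9 (SE 15.98, pfp 0.383), all treated arrays lying above as in 4.34% of all probe sets. With regular γ-oryzanol it differed by -0.497 (SE 2.84).

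Igfbp2, a binding protein for insulin-like growth factors, was called in opposite directions. In liver it stood at 17.1, -33.2 and 16.2 millionths in vehicle arrays and -70.6, -57.5 and -117 in regular γ-oryzanol arrays (difference -81.8, SE 22.5, pfp 0.0486), and at 129, 193 and -322 against 1008, 479 and 372 in Nano-Orz arrays (difference 619.8, SE 235, pfp 0.00512). The groups did not overlap in either, as in 9.25% and 9.01% of all probe sets. The calls held in 2 and 3 of the 6 sets without 1 array, with a largest pfp of 0.424 and 0.133, and were lost without Orz 3 or any vehicle array of regular γ-oryzanol and without any treated array of Nano-Orz. In hypothalamus Igfbp2 was called lower with Nano-Orz at -11169 (SE 4256, pfp 0), a call that held in all 6 sets. There 4 of 8 fibroblast and stellate markers (Col1a2, Col3a1, Dcn and Lum) and 6 of 7 choroid plexus markers were called lower as well, beside 0.734% of all probe sets. Among these calls only Dcn, Lum and the choroid plexus gene Kcnj13 had no overlap of arrays. The choroid plexus calls of Folr1, Clic6 and Aqp1 were lost without Veh 1 or Veh 2, and those of Col1a2 and Col3a1 without Veh 3. The fibroblast sum ran from -1741 to 2497 in vehicle and from -17676 to -2448 in treated arrays, and in liver 3 of the 8 (Col1a2, Col3a1 and Lum) were called higher with Nano-Orz and 1 (Lrat) lower with regular γ-oryzanol. Their part in the Igfbp2 signal was not tested. Fos, from the list of Stat5-dependent targets, was called lower in hypothalamus with regular γ-oryzanol (-3785, SE 7754, lost without Veh 1 or Veh 2) and higher with Nano-Orz (5350.1, SE 2608), with overlap in both. The Nano-Orz call held in all 6 sets without 1 array, with a largest pfp of 0.0167.

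Among 13 other liver transcription factors tied to sex bias, 0 were called in liver with regular γ-oryzanol and Foxa3 was called lower with Nano-Orz, at -433, -180.1 and -923 millionths against -149, -89.5 and 239 (difference -512, SE 229.9, pfp 0.0092, lost without any 1 vehicle array). Of 18 male-biased liver genes measured, 8 were called higher and 0 lower with Nano-Orz, and 0 higher and 1 lower with regular γ-oryzanol, Cyp4a12a, whose mean difference was positive at 914 (SE 9227). Of 20 female-biased genes 9 were called lower and 0 higher with Nano-Orz, and 3 higher and 0 lower with regular γ-oryzanol. Both lists were chosen with earlier results of these data known, and both had been seen to move before. Their counts therefore cannot test whether sex-biased genes respond more often than other genes. Over the whole array the called share in liver was 0.297% higher and 0.182% lower with Nano-Orz. With regular γ-oryzanol it was 0.182% higher and 0.224% lower. In liver the arrays overlapped in all calls of the male-biased and female-biased lists except that of Sult2a2 with Nano-Orz, and many rested on single arrays. With regular γ-oryzanol each of the 3 female-biased calls (Hao2, Sult2a2 and Prom1) held in 1 of the 6 sets without 1 array, namely that without Veh 2, and 0 were called in the other 5 sets. The Cyp4a12a call held in 2 of 6. Of the 8 male-biased calls with Nano-Orz, C8a and Cyp2d9 held in 5 of 6 sets and the other 6 genes in 1 or 2. The number called higher was 1, 1 and 2 without Orz 1, Orz 2 and Orz 3, and 6, 8 and 3 without Veh 1, Veh 2 and Veh 3. Of the 9 female-biased calls, Sult2a2, Cyp2b13, Hao2 and Hamp2 held in all 6 sets and the other 5 in 3 or 4, and the number called lower was 4 without Veh 1, 5 without Veh 3 and 8 or 9 without any other array. Same-numbered arrays were also taken as pairs, although no label pairs them. Over these pairs rank product called 9 male-biased genes higher, the 8 among them, and 7 female-biased genes lower, without Cyp2b9 (pfp 0.0727) and Nipal1 (pfp 0.085). C6, Cyp2d9, Elovl3 and Nat8 were higher in all 3 pairs, and Cyp2b13, Hao2, Slc22a27 and Sult2a2 were lower in all 3. No share of all probe sets is given for the pairs or for the sets without 1 array. These counts therefore describe the lists only and are not a replication. Among the called genes with Nano-Orz the largest differences were those of C8a, Cyp4a12a, Cyp2d9 and Mup3 among the male-biased genes and Sult2a2, Cyp2b13, Hao2 and Hamp2 among the female-biased ones. In Nano-Orz liver the complement gene C8a stood at 2401, 12339 and -14740.4 millionths in vehicle arrays and at 14835, 9010.2 and 5488 in treated arrays, with pair differences of 12434, -3329 and 20229, and its call was lost without Orz 1. The oxidase Hao2 stood at -11473, -28923 and 40396 against -43496, -41394 and -23512, with pair differences of -32023, -12471 and -63907. In both genes Veh 3 was the vehicle array farthest from the treated ones. Veh 3 was the highest of the 6 arrays in 14 of the 20 female-biased genes. Their sum was 1335048 millionths in Veh 3 against -665853 and -669196 in Veh 1 and Veh 2. Sult2a2 alone stood at 1195087 in Veh 3 against -636756 and -558331. The sum of the 18 male-biased genes was -36751 in Veh 3 against 12477 and 24274. Veh 3 was also the vehicle array of lowest Bcl6. Orz 2, highest in Bcl6, stood at 9010.2 in C8a and at -41394 in Hao2. A link between Bcl6 and the sex-biased genes was not tested.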

How the data were processed

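24 Affymetrix mouse arrays of liver and hypothalamus were analysed, 3 per group. The authors quantified scanner intensities with the distribution free weighted method, apparently per tissue and preparation, and deposited the result as log2 values, 1 per probe set and array; any filter was not given in the sources used here. Values were used as deposited. 4 further tables hold 24 columns of per-sample values whose animal codes no label maps to samples, and these were not used; 12 codes occur in both tissues. Detection calls were not used here, and the number of arrays limits the precision. Tissues were treated as independent when their effects were compared, since no label ties a liver to a hypothalamus.

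The 9 genes and all lists were chosen with earlier results of these data known. Every probe set listed for a single member symbol was kept. A gene outside the 9 is represented in each tissue by its probe set with the greatest mean, chosen from 34958 probe sets with 1 symbol (932 have several). Named besides the 9 genes were called list genes, up to 4 per list and direction, the 3 genes most like a called member, and genes said to be chosen after values were seen.

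Following the study's methods, probe sets were called by rank product, with all 9 pairs and 100 permutations of values within arrays, at a pfp under 0.05 over 45101 probe sets and in each direction. Standard errors and Benjamini-Hochberg adjusted p came from limma (version 3.58.1, run in R 4.3.3), which also tested differences between preparations and tissues. Both scripts were tested on simulated data. The pairing check was the correlation of same-numbered arrays' deviations from their group means. It gave 0.626, 0.945 and 0.947 in liver with Nano-Orz, and at least 1 correlation under 0.1 in each other comparison. No label pairs a treated mouse with a vehicle mouse. Probe sets of very wide spread, such as Sult2a2 in liver with Nano-Orz, weigh most in this correlation. It therefore cannot show that the numbers pair the arrays. Alternatives were limma, the methods' t-test, a pfp under 0.01, quantile normalization, median centring, leaving out probe sets of lower mean, a replicate block, another seed, the probe set of widest spread for each gene, and leaving out each array. Computation outside R ran in Python 3.11.15 with scipy 1.17.1 and numpy 2.4.6, tables in pandas 2.3.3 and plots in matplotlib 3.10.9.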

Additional observations from a re-analysis of the deposited data

Results flagged for a closer look

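Igfbp2 1454159_a_at moved to opposite sides in the liver comparisons, with every treated array below every vehicle array for regular γ-oryzanol (-81.8 millionths, SE 22.5) and above for Nano-Orz (619.8, SE 235). Of all probe sets, 4.23% lay wholly below in the first comparison and 4.34% wholly above in the second. The difference between both effects was 702 millionths (SE 243) with a limma p of 0.0184 and an adjusted p of 0.817. The comparisons were apparently quantified apart, so this and the other differences between effects given here cross scales. It also moved oppositely in the tissues with Nano-Orz, higher in liver by 619.8 and lower in hypothalamus by -11169 millionths, a difference of 11788 (SE 4414, limma adjusted p 0.711). Cyp2c29 1417651_at, a cytochrome P450 of the male-biased list, lay lower in every hypothalamus array of regular γ-oryzanol (-133 millionths, SE 25.9) and higher in every one of Nano-Orz (5.39, SE 1.003), a difference between effects of 139 (SE 26.7, limma adjusted p 0.254). Of all probe sets, 5.04% lay wholly below in hypothalamus with regular γ-oryzanol and 6.18% wholly above with Nano-Orz. With Nano-Orz Cyp2c29 was not called. The call with regular γ-oryzanol held in 2 of the 6 sets without 1 array and was lost without Orz 1 or any vehicle array. Of 10 hepatocyte genes measured, 2 (Alb and Cyp2e1) were called lower in hypothalamus with regular γ-oryzanol too, beside 0.384% of all probe sets. Among the 10, 1 had a positive difference and the median was -63.9 millionths. The part of hepatocyte genes was not tested.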

How the results depend on the processing

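The call of Bcl6 in liver was the result that changed most often, and it was lost in both preparations at a pfp under 0.01, by limma and by the methods' t-test after Benjamini-Hochberg (0 probe sets of the 23 called in each), with limma and a replicate block giving 0 as well. Quantile normalization gave 0 calls with regular γ-oryzanol (Bcl6 pfp 0.288), while median centring kept the call in both preparations, the filter on probe sets of lower mean and another seed each gave 1 call in both, and quantile normalization kept it with Nano-Orz (pfp 0.0187). The methods' t-test at an unadjusted threshold gave 2 (Socs2 1446085_at and Socs3 1455899_x_at, higher) and 0 in liver (4.42% and 4.39% of all probe sets), and 1 (Ghr 1417962_s_at) and 3 (Stat5b 1422103_a_at, Socs2 1442586_at and Socs3 1455899_x_at) in hypothalamus (5.51% and 5.91%). Leaving out 1 array gave 0 to 2 calls in liver with regular γ-oryzanol, 0 to 1 with Nano-Orz, 0 to 2 in hypothalamus with regular γ-oryzanol (Socs2 1418507_s_at and 1449109_at lower without Orz 3) and 0 to 1 with Nano-Orz (Socs2 1441476_at higher without Veh 2). Without Veh 3 of regular γ-oryzanol in liver, Socs2 1449109_at was called higher. The Bcl6 difference ran from -2185 to 610.1 millionths and from -6913 to 2793 over these sets, turning positive at 610.1, 2793, 2617 and 1389.

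Rank product with the replicate block gave 3 calls in liver with regular γ-oryzanol (Bcl6 lower, Socs2 1449109_at and Socs3 1455899_x_at higher) against 1 without it. There same-numbered arrays had correlations of 0.351, -0.609 and 0.672. In liver with Nano-Orz, where these correlations were all over 0.1, the block kept the Bcl6 call (pfp 0.0273), and it changed no other call among the 23. No label pairs the arrays in either. In liver with regular γ-oryzanol the block took the pfp of Igfbp2 to 0.0513, turned the Cyp4a12a call from lower to higher (pfp 0.00491) and gave 5 in place of 3 female-biased genes called higher. Left-out arrays and pairs for the sex-biased lists were chosen after seeing the data. Differences between preparations and between tissues gave 0 of the 23 under every left-out array and under the replicate block, with a smallest adjusted p of 0.0718. Quantile normalization over the 24 arrays moved the count of probe sets higher in every liver array from 6 to 14 and in every hypothalamus array from 13 to 2. The causes were not tested. With 3 arrays a group, no exact p can fall below 0.1, and arrays without detection calls set no lower limit on signal.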

Other observations

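The spread of Socs2 in the hypothalamus arrays of regular γ-oryzanol ran alongside genes of neighbouring brain regions. Over these 6 arrays Socs2 1449109_at had r = 0.964 with Tcf7l2 and r = 0.982 with Shox2, transcription factors of thalamic neurons, and r = 0.983 with the neuropeptide Cck. Its r with the hypothalamic neuropeptide genes Pomc and Npy was -0.868 and -0.816. Orz 2, with the lowest Socs2, stood at -33459 millionths in Tcf7l2 and -237713 in Shox2, and at 744 in Pomc and 927 in Npy, while Orz 3, with the highest Socs2, stood at 14740.2, 120377, -821 and -1348 in the same genes. In the hypothalamus arrays of Nano-Orz, Shox2 varied between -50.5 and 108 millionths and Socs2 between -2.49 and 4.29. These genes were chosen after values were seen, the points apparently share 1 quantification, and the correlations are given without a test.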
